A study of Mus musculus with 9 samples.

Results

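The genes described here are Pla2g7 and 8 other genes of lipid mediator metabolism (Alox5, Alox5ap, Ptgs1, Ptgs2, Lta4h, Ltc4s, Ptafr and Tbxas1), read in mouse dendritic cells from wild-type mice and from 2 groups labelled as knockouts of the MHC class II system. They were chosen by name, with earlier results of the same arrays in view, and every probe set that the array annotation gives to one of them was taken. An Affymetrix probe set is a group of short oligonucleotides that together measure a transcript. Of the 9 genes, 6 have a probe set: 10 of the 12488 probe sets on the array design used for experiments 2 and 3, and 9 of the 12654 on the design used for experiment 1. Alox5, Alox5ap and Ptgs1 were not analysed here.

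The samples are total RNA of dendritic cells at day 10 from 3 groups of mice, with 3 arrays each: wild-type B6, CIITA-/- and IAb-/-. CIITA is the master activator of MHC class II transcription, and IAb names the protein whose beta chain H2-Ab1 encodes. The titles number the arrays as experiments 1 to 3, except 1 CIITA-/- array, which was taken as experiment 2, the only number left in its group, so each CIITA-/- difference within experiment 2 rests on that reading. The strain behind the knockouts, the ages of the mice, the way the cells were grown and whether the 3 arrays of a group stand for different animals are not given in the sources used here. The spread between arrays, which is all that the p-values measure, may therefore be technical.

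The genes that the labels name did not give a plain check of them. In experiments 2 and 3 H2-Ab1 read 17261 and 21348 in B6, 615 and 112 where the label is CIITA-/-, and 16070 and 9621 where it is IAb-/-. In experiment 1 it read 44048, 675 and 30749. It was thus lower than B6 but far above noise on all 3 arrays labelled IAb-/-, and within noise on those labelled CIITA-/-. Ciita stayed within noise on all 9 arrays, and read higher on the arrays labelled CIITA-/- (1601 and 1639, and 1822 in experiment 1) than on B6 (623 and 933, and 1045). Which part of either gene was deleted, and whether the probes lie in it, the sources used here do not say, so the readings of Ciita and H2-Ab1 alone do not settle the labels. Several other class II genes, though not Cd74, were low on the CIITA-/- arrays, the direction that loss of their activator would give. H2-Aa read 51407 and 53578 in B6, -1520 and -2254 in CIITA-/- and 46977 and 29271 in IAb-/-. In experiment 1 it read 33825, -1893 and 65738. H2-Eb1, H2-DMb1 and H2-DMb2 were over 2-fold lower in CIITA-/- than in B6 in each experiment. Cd74, the invariant chain, went the other way. In experiments 2 and 3 it read 138308 and 129594 in B6 and 146496 and 142067 in CIITA-/-. In experiment 1 it read 14649 in B6 and 34924 in CIITA-/-. Below, CIITA-/- and IAb-/- mean the arrays so labelled, and each direction rests on those labels.

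Lipid mediators are short-lived signals cut from membrane lipids. Phospholipase A2 enzymes release arachidonic acid; 5-lipoxygenase and its helper protein turn it into leukotriene A4, which Lta4h converts to leukotriene B4 and Ltc4s to the cysteinyl leukotrienes; the cyclooxygenases Ptgs1 and Ptgs2 start the prostaglandins and thromboxane, the latter made by Tbxas1. Platelet-activating factor (PAF) is a separate phospholipid signal that acts through the receptor Ptafr. Pla2g7 is the secreted PAF acetylhydrolase, which inactivates PAF and also cleaves oxidised phospholipids. Myeloid cells make many of these enzymes, and leukotrienes are known to affect the migration of dendritic cells.

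The deposited intensities are in arbitrary units and share one scale within each array design, but not between designs, so experiment 1 is compared only within itself. On each array 21% to 26.4% of probe sets are negative. A noise limit was therefore set at the size that 95% of the negative readings stay under, which is 1701 in experiments 2 and 3 and 2203 in experiment 1. Of 15 dendritic cell markers, 14 lay above it on both B6 arrays of experiments 2 and 3, among them Itgax, Cd86, Fscn1 and Ccr7. On both CIITA-/- arrays 13 did, without H2-Aa, and on both IAb-/- arrays 13, without Zbtb46 (1167 in experiment 2). In experiment 1 the counts were 12, 12 and 13 in B6, CIITA-/- and IAb-/-. At the bright end the IAb-/- arrays of experiments 2 and 3 stood apart from each other: a probe set for the spike-in control Cre read 99616 and 58224, against 71464 to 79408 on the other 4 arrays.

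Promoter sequence is shown for Pla2g7, the member whose level differed most between groups, and for Ltc4s, which is also far above noise and did not follow it. Both are the 250 bases before the RefSeq transcript start (GRCm38.p6), printed in the direction of transcription, at chr17:43568201-43568450 (plus strand) for Pla2g7 and chr11:50238533-50238782 (minus strand) for Ltc4s. Another RefSeq model of Pla2g7 starts further upstream. Capitals mark a GC box (GGGCGG, either strand).
Pla2g7: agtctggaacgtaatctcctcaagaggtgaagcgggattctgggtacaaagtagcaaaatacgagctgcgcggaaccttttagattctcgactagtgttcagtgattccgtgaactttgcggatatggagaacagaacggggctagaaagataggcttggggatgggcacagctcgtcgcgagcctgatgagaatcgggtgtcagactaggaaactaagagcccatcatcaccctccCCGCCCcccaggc
Ltc4s: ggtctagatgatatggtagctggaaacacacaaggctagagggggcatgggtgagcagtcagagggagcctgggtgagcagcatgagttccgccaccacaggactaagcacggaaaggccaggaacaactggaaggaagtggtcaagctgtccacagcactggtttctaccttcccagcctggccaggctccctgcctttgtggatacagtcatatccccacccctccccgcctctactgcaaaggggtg
The Pla2g7 window holds 1 GC box, beginning 13 bases before the start, and the Ltc4s window none. Of 32851 RefSeq promoter windows of this length, 32.7% hold one. Neither window matched the TATA box TATAAA (in 12.4% of windows), CCAAT (33.8%), the PU.1 core GAGGAA (23.3%), the AP-1 site TGANTCA (6.75%), the cyclic AMP element TGACGTCA (1.55%), the C/EBP letters TTGCNNAA (9.56%) or the NF-kB consensus (7.25%), each read on both strands with overlaps between motifs allowed. These are letter matches only.

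Pla2g7 was lower on every array labelled IAb-/- than on the B6 and CIITA-/- arrays of its design. In experiments 2 and 3 its probe set gave 18138 and 18321 for B6, 16978 and 19920 for CIITA-/-, and 8155 and 8166 for IAb-/-. In experiment 1 it gave 30574 for B6, 33758 for CIITA-/- and 14507 for IAb-/-. The IAb-/- values stood below both other groups in each experiment, while the B6 values of experiments 2 and 3 lay between the CIITA-/- ones.

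Within experiments, Pla2g7 on the IAb-/- array was at 47.4% of the B6 level in experiment 1, 45% in experiment 2 and 44.6% in experiment 3. As log2 differences these are -1.08, -1.15 and -1.17. The array means of experiments 2 and 3 were 18230 ± 129 for B6, 18449 ± 2080 for CIITA-/- and 8161 ± 8 for IAb-/- (SD, n = 2). The fitted log2 difference of IAb-/- from B6 was -1.16 (SE 0.15). In bulk RNA, fewer cells that make a transcript and less transcript per cell cannot be told apart. Because these values are part of why the gene was chosen, they are a description, and no test of them is read as a result.

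The CIITA-/- arrays did not share the low Pla2g7 level. Relative to B6 they were at 110% in experiment 1, 93.6% in experiment 2 and 109% in experiment 3, with a fitted log2 difference of 0.01 (SE 0.15; 95% interval -0.38 to 0.40). Between the groups labelled CIITA-/- and IAb-/-, the log2 difference was 1.22, 1.06 and 1.29 in experiments 1, 2 and 3. The IAb-/- arrays are shared by this comparison and the one with B6. The low level was present on both IAb-/- arrays of experiments 2 and 3, whose spike-in readings at the bright end differed as given above. The part of array scale in the Pla2g7 level was not tested.

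**Figure D1:**
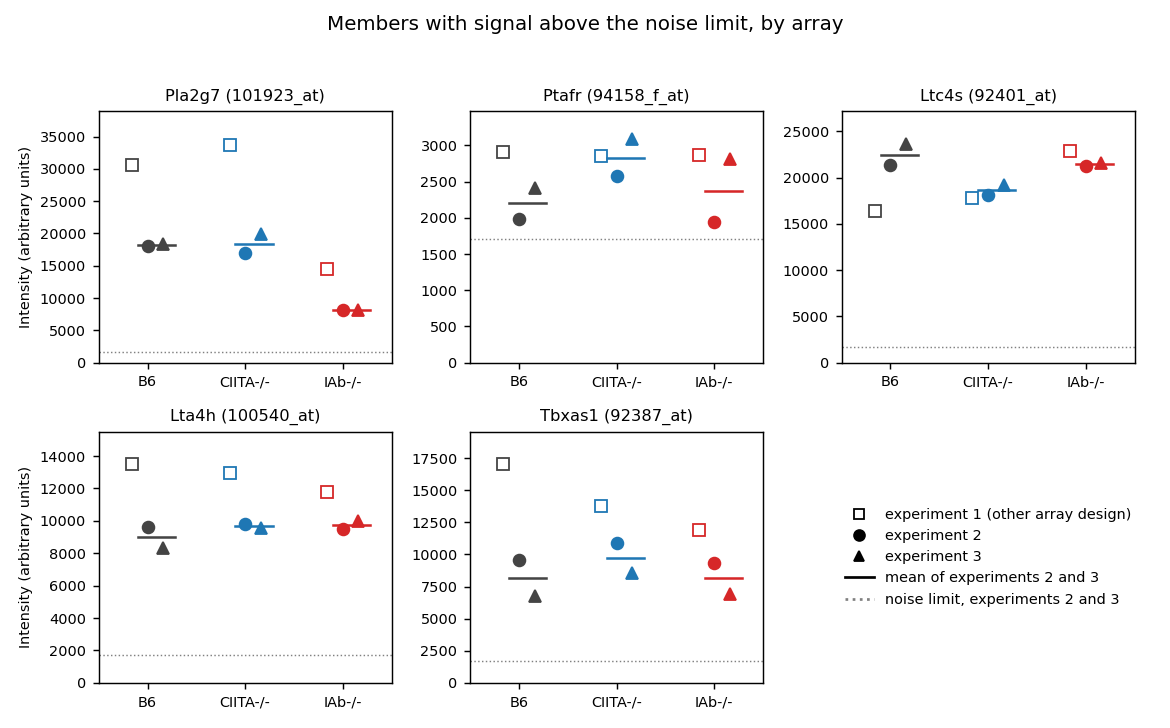
Intensity (arbitrary units, linear axes from 0) of the 5 member probe sets above the noise limit on every array, by group. Each point is 1 array, bars are means of experiments 2 and 3, and open squares (experiment 1) are on another array design. Pla2g7 is at 8155 and 8166 on the IAb-/- arrays of experiments 2 and 3 against 16978 to 19920 in the other groups, while the other 4 genes show no such step.

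A fall of this size in all 3 experiments was rare on these arrays. Among 3357 probe sets on both designs that lay above noise on all 3 arrays of B6 or of IAb-/-, 1 was over 2-fold lower in IAb-/- in each experiment (0.0298%), and it was Pla2g7. In the other direction 1 was over 2-fold higher (0.0298%), Pim1, a kinase induced by cytokines, with log2 differences of 1.08, 1.84 and 1.52 on 1 of its 2 probe sets and 0.50, 0.54 and 0.52 on the other. Of 3316 probe sets above noise on all 3 arrays of CIITA-/- or of IAb-/-, 1 was over 2-fold higher in CIITA-/- than in IAb-/- in each experiment (0.0302%), again Pla2g7. Over 2-fold lower in CIITA-/- than in IAb-/- in each experiment were probe sets of H2-Ab1, H2-Aa, H2-Eb1, H2-DMb1, H2-DMb2, Glo1 and Pim1. Glo1 had log2 differences of -1.04, -1.03 and -1.05, and Pim1 of -1.57, -1.91 and -1.41. The member was chosen with this contrast in view, so nothing is read from the counts beyond its place among them. The 2-fold limit lies close to the member: its smallest fall was the log2 value -1.08 of experiment 1.

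**Figure D2:**
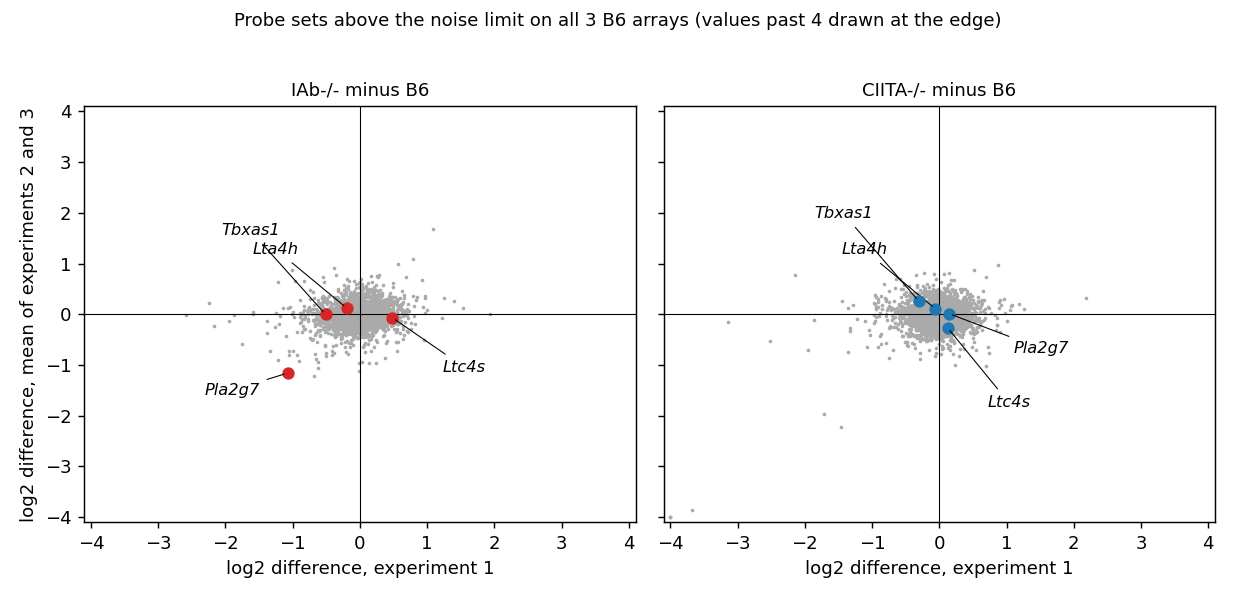
Log2 differences from B6 in experiment 1 (x) and averaged over experiments 2 and 3 (y) for the 3183 probe sets above noise on all 3 B6 arrays, IAb-/- on the left and CIITA-/- on the right. Grey points are probe sets and coloured points are Pla2g7, Ltc4s, Lta4h and Tbxas1; values past 4 are drawn at the edge. Pla2g7 lies at -1.08 and -1.16 in the IAb-/- panel and near 0 in the CIITA-/- panel.

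Macrophages are a known source of Pla2g7. Of 14 measured macrophage markers, 6 were above noise on both arrays of each group in experiments 2 and 3 (Cd14, Cd68, Csf1r, Fcgr1, Lyz2 and Msr1). Adgre1, Mertk, Mrc1, Marco and the C1q chains were under the limit on all 6 arrays. In experiments 2 and 3 the summed level of the list, with negative values as 0, was 35647 to 40627 on B6 arrays, 44300 to 49875 on CIITA-/- arrays and 44707 to 55693 on IAb-/- arrays. These sums lean on Lyz2, the largest entry. It read 15191 and 14154 in B6, 17725 and 22732 in CIITA-/- and 27047 and 18616 in IAb-/-. In experiment 1, where the numbers of the other design do not compare, it was 117613, 115090 and 107448 in that order of groups. Of 8 markers above noise on the B6 array of that experiment, 6 were lower on the IAb-/- array by value and 2 higher. The lower ones ran from Lyz2, at 44081 in B6 and 43512 in IAb-/-, to Mrc1, the mannose receptor, at 8051 and 2565, with 4770 in CIITA-/-. Adgre1 (F4/80) gave 3798 and 2331, with 1937 in CIITA-/-. The higher ones were Cd14, at 12008 in B6 and 18659 in IAb-/-, and Fcgr1, at 4371 and 5401. The part of other cells in the Pla2g7 level was not tested.

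The receptor that answers PAF, Ptafr, was measured by 3 probe sets that disagree. The brightest, of the kind whose probes are shared within a sequence family, gave 1985 and 2412 on B6 arrays, 2571 and 3084 on CIITA-/- arrays and 1937 and 2811 on IAb-/- arrays, all above noise. The CIITA-/- arrays were the higher in both experiments, by log2 0.37 and 0.35, but experiment 1 gave 2906, 2847 and 2865, which is -0.03. Over experiments 2 and 3 the difference was 0.36 (SE 0.25; 95% interval -0.30 to 1.02; limma, adjusted p = 0.931). For IAb-/- against B6 it was 0.09 (SE 0.25; -0.57 to 0.75; adjusted p = 1). The next ran from 680 to 1564 over the 6 arrays of experiments 2 and 3, within noise. In experiment 1 it gave 2572 for B6, above noise, and 1943 and 1678 for CIITA-/- and IAb-/-, under it. The third was below 0 on all 9 arrays.

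Lta4h, which makes leukotriene B4, showed no step between groups. It gave 9618 and 8338 on B6 arrays, 9799 and 9562 on CIITA-/- arrays and 9518 and 9972 on IAb-/- arrays. In experiment 1 the values were 13507, 12933 and 11790. The groups overlapped in experiments 2 and 3, with log2 differences from B6 of 0.11 for CIITA-/- (95% interval -0.27 to 0.50; limma, adjusted p = 0.935) and 0.12 for IAb-/- (-0.26 to 0.51; adjusted p = 1). Within experiments 1, 2 and 3 the differences were -0.06, 0.03 and 0.20 for CIITA-/- and -0.20, -0.02 and 0.26 for IAb-/-, so neither kept its sign. A change of the size seen for Pla2g7 lies outside both intervals.

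Ltc4s, which makes leukotriene C4, also stayed well above noise. Its bright probe set read 21371 and 23598 in B6, 18077 and 19263 on CIITA-/- arrays and 21252 and 21616 on IAb-/- arrays. The CIITA-/- arrays were the lowest in experiments 2 and 3, by log2 -0.24 and -0.29 against B6. In experiment 1, however, the order was 16370 for B6, 17831 for CIITA-/- and 22844 for IAb-/-, so B6 was lowest there. The fitted difference of CIITA-/- from B6 was -0.27 (SE 0.14; 95% interval -0.64 to 0.10; limma, adjusted p = 0.931) and that of IAb-/- was -0.07 (-0.44 to 0.30; adjusted p = 1). CIITA-/- was below IAb-/- in each of the 3 experiments, with log2 differences of -0.36, -0.23 and -0.17. Of the 3316 probe sets of that comparison, 14.1% were lower in each experiment, and the fitted difference did not pass (-0.20, SE 0.14; adjusted p = 1).

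A further Ltc4s probe set was below 0 on all 6 arrays that carry it. Mast cells and basophils are known for Ltc4s, and of 13 measured markers of theirs 12 were under the noise limit on all 6 arrays, Cpa3, Fcer1a, Kit and Ms4a2 among them. The exception was Mcpt1, on a family probe set.

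Tbxas1, thromboxane synthase, differed between experiments 2 and 3 in every group. Its bright probe set read 9595 and 6762 in B6, 10903 and 8518 on CIITA-/- arrays and 9355 and 6903 on IAb-/- arrays, the first value of each pair from experiment 2. Experiment 3 was lower than experiment 2 in all 3 groups, by log2 -0.50, -0.36 and -0.44. Against B6 the fitted difference was 0.26 for CIITA-/- (SE 0.28; 95% interval -0.47 to 0.99; limma, adjusted p = 0.933) and 0.00 for IAb-/- (-0.73 to 0.73; adjusted p = 1). In experiment 1 the values were 17015 for B6, 13764 for CIITA-/- and 11938 for IAb-/-, which put both knockouts below B6, by log2 -0.31 and -0.51. CIITA-/- was above IAb-/- in each of the 3 experiments, by log2 0.21, 0.22 and 0.30, a pattern that 12.5% of the 3316 probe sets showed.

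The other Tbxas1 probe sets were 1 on the design of experiments 2 and 3 alone, within noise at 333 to 522, and 1 on the design of experiment 1 alone, with 3712, 3484 and 3141 in B6, CIITA-/- and IAb-/-. The latter, of the shared-family kind, follows the order of the bright probe set in that experiment. Its log2 differences from B6 were -0.09 for CIITA-/- and -0.24 for IAb-/-. Platelets are rich in Tbxas1. Of 6 measured platelet and megakaryocyte markers, 4 (Gata1, Gp1bb, Gp5 and Pf4) were under the noise limit on all 9 arrays. Vwf, which endothelial cells also make, read 1637 to 2782 in experiments 2 and 3 and 2390 to 2727 in experiment 1. Gp9 was above noise on 1 of the 6 arrays, at 2115 (B6, experiment 3), and read 2582, 1958 and 2972 in B6, CIITA-/- and IAb-/- in experiment 1. The part of such cells in the Tbxas1 level was not tested.

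Ptgs2, the inducible cyclooxygenase, had no signal above noise on any array. It read 64 and 22 in B6, 70 and -40 on CIITA-/- arrays and 88 and 34 on IAb-/- arrays, and -73, -25 and 170 in experiment 1. All 9 values lie far under the noise limits, so no direction can be read.

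**Figure D3:**
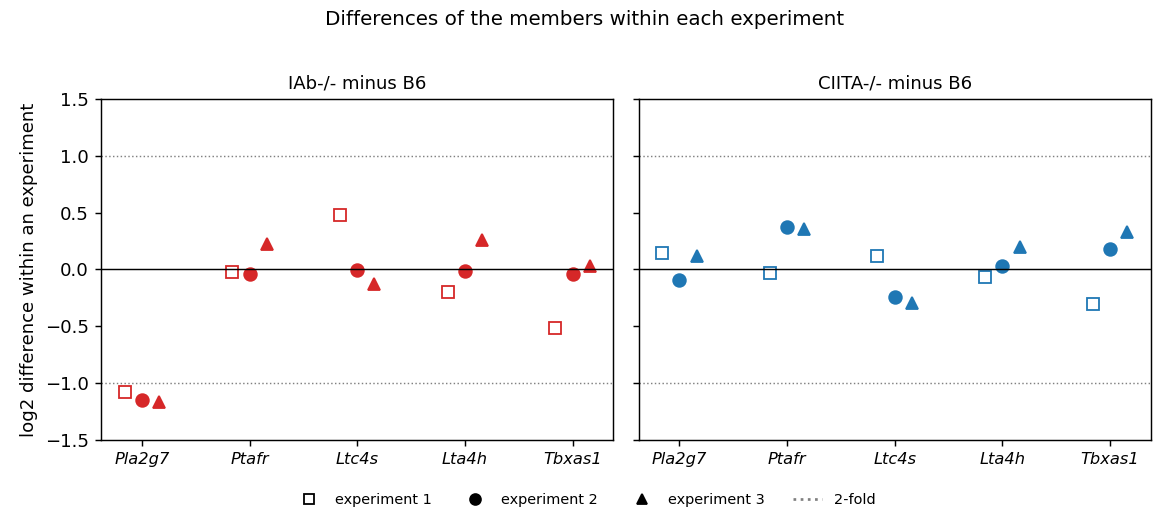
Log2 difference from B6 within each experiment (y) for the 5 member probe sets above noise, IAb-/- on the left and CIITA-/- on the right. Each symbol is 1 array against the B6 array of its experiment, and dotted lines mark 2-fold. For Pla2g7 the 3 IAb-/- points lie between -1.17 and -1.08, and every other point of both panels lies within 2-fold.

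Across all probe sets, 7 of the 10 member probe sets on the design of experiments 2 and 3 passed the filter on low values and entered the test of 9312. With limma, a linear model with moderated variance, 0 of the 7 passed at an adjusted p under 0.05 in CIITA-/- against B6 (all probe sets 0.0966%), 0 in IAb-/- against B6 (0.0107%) and 0 in CIITA-/- against IAb-/- (0.0215%). At an unadjusted p under 0.05 the counts were 0, 1 and 1, against 5.86%, 4.31% and 4.54% of all probe sets. The 1 was Pla2g7 both times. It was chosen with these differences in view, so nothing is read from it.

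Groups of 2 arrays often did not overlap. That held for 3 of the 7 member probe sets in CIITA-/- against B6 (38.8% of all tested), 2 in IAb-/- against B6 (32.3%) and 2 in CIITA-/- against IAb-/- (25.9%). The first 3 were the brightest probe sets of Ltc4s and Ptafr and the Tbxas1 probe set that lies within noise.

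The rest of the pathway showed no gene that passed. It was described from 5 lists of 74 genes, of which 49 have a probe set on the design of experiments 2 and 3, and 46 probe sets of 40 genes were tested. With limma 0 of the 46 passed in any of the 3 comparisons, and 3, 2 and 2 had an unadjusted p under 0.05 in CIITA-/- against B6, IAb-/- against B6 and CIITA-/- against IAb-/-, where 5.86%, 4.31% and 4.54% of all probe sets had one. The median log2 difference of the 46 was 0.00, 0.04 and 0.02 in that order, beside 0.01, 0.01 and 0.00 over all probe sets. Of the 46, 27 lay within noise on all 6 arrays.

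Among receptors, those for leukotriene B4 (Ltb4r1) and for prostaglandins E2 (Ptger4), D2 (Ptgdr2) and prostacyclin (Ptgir) were above noise. Ltb4r1 gave 8504 and 3967 on B6 arrays, 10163 and 6401 on CIITA-/- arrays and 10708 and 6759 on IAb-/- arrays. Both knockout groups were above B6 within each of these experiments, but experiment 3 was lower than experiment 2 in every group, by log2 -1.10, -0.67 and -0.66, so the groups overlap. In experiment 1 the values were 10322, 12876 and 9153. The fitted difference from B6 was 0.47 for CIITA-/- (SE 0.49; limma, adjusted p = 0.933) and 0.55 for IAb-/- (SE 0.49; adjusted p = 1).

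Ptgir gave 1702 and 1868 on B6 arrays, 2061 and 2701 on CIITA-/- arrays and 2417 and 3133 on IAb-/- arrays. B6 was lowest and did not overlap with either knockout group in experiments 2 and 3, with a difference of 0.63 (SE 0.22; limma, adjusted p = 1) for IAb-/-. Groups did not overlap, in either direction, for 38.8% of all tested probe sets in CIITA-/- against B6 and 32.3% in IAb-/- against B6. In experiment 1 the values were 3835, 4449 and 3826. CIITA-/- was thus above B6 in all 3 experiments, by 0.21, 0.28 and 0.53 (fitted 0.40, SE 0.22; limma, adjusted p = 0.931), as 17.4% of 3330 probe sets were. For IAb-/- experiment 1 gave 0.00. Ptgdr2 differed by 0.47 (SE 0.33; limma, adjusted p = 0.931) in CIITA-/- against B6 and by the opposite sign, -0.28, in experiment 1. Ptger4 was at 7209 and 8781 on B6 arrays, 7449 and 6986 on CIITA-/- arrays and 6317 and 7547 on IAb-/- arrays. The 2 probe sets of Ptgfr, the receptor for prostaglandin F2 alpha, named here after their values were seen, had log2 differences of 0.98 and -0.83 in CIITA-/- against B6, both within noise and opposite in sign.

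**Figure D4:**
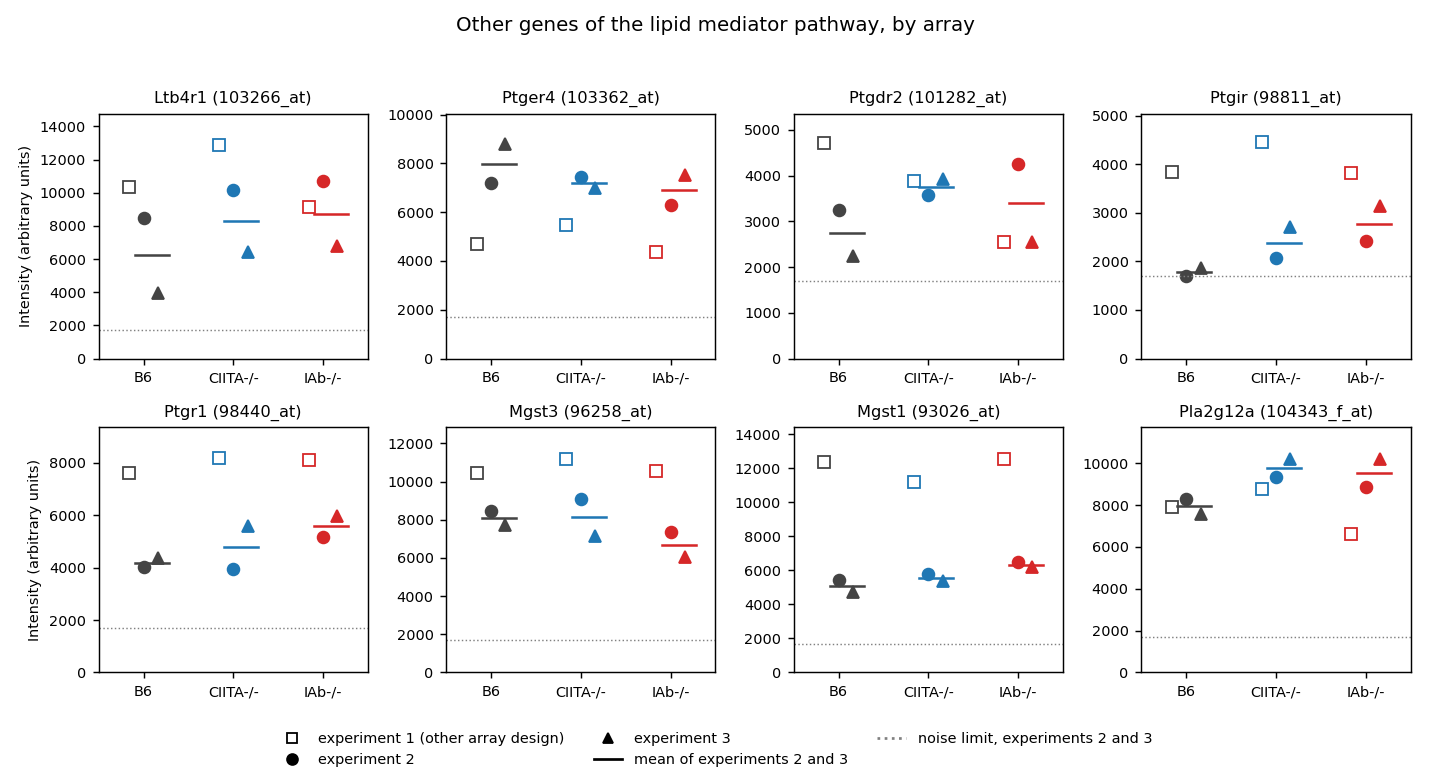
Intensity (arbitrary units, linear axes from 0) of 8 other probe sets of the pathway, by group, drawn as for the members, with bars at the means of experiments 2 and 3. Ltb4r1 runs from 3967 to 10708 in experiments 2 and 3, lower in experiment 3 in every group, and in no panel is a group over 2-fold from another in all 3 experiments.

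Of the enzymes, Ptgr1, which inactivates leukotriene B4 and prostaglandins, gave 4038 and 4358 on B6 arrays, 3950 and 5597 on CIITA-/- arrays and 5166 and 5988 on IAb-/- arrays. It was higher than B6 in IAb-/- in all 3 experiments, by log2 0.09, 0.36 and 0.46, as 14.3% of 3357 probe sets were, and did not pass (0.41, SE 0.22; limma, adjusted p = 1). Mgst1, a microsomal glutathione transferase, was higher in IAb-/- in all 3 experiments too, by 0.02, 0.25 and 0.38 (0.32, SE 0.15; limma, adjusted p = 1). Its relative Mgst3 was at -0.28 in IAb-/- against B6, and at 0.01 in experiment 1. Ephx1, the microsomal epoxide hydrolase, differed by 0.33 (SE 0.26; limma, adjusted p = 0.931) in CIITA-/- against B6, with 0.75 in experiment 2 and -0.09 in experiment 3; in experiment 1 it lay within noise.

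The phospholipase Pla2g12a was higher than B6 in CIITA-/- in all 3 experiments, by log2 0.14, 0.17 and 0.43, as 17.4% of 3330 probe sets were, on a probe set of the shared-family kind (0.30, SE 0.16; limma, adjusted p = 0.931). Its other probe set was below 0 on all 9 arrays. In IAb-/- the sign of the first turned between experiment 1 (-0.26) and the others (0.10 and 0.43). Plaa, an activator of phospholipase A2, differed by -0.23 in CIITA-/- and -0.25 in IAb-/- on its brighter probe set, which is not on the design of experiment 1. Pla2g4a, the cytosolic phospholipase that frees arachidonic acid, was within noise, at 446 to 890 on the 6 arrays. A probe set given to the pancreatic enzyme Pla2g1b read 8778 to 12814, while that gene's probe set on the design of experiment 1 read -783 to 50, so that level is uncertain.

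The Pafah1b genes encode subunits of an intracellular PAF acetylhydrolase, and none of those named here was 2-fold lower in IAb-/-. Pafah1b2 gave 3461 and 3447 on B6 arrays, 3265 and 3681 on CIITA-/- arrays and 3555 and 4903 on IAb-/- arrays on 1 of its probe sets, a difference of 0.27 for IAb-/- (SE 0.21; limma, adjusted p = 1) that turned to -0.14 in experiment 1. Another of its probe sets had -0.16 in CIITA-/- against B6 (SE 0.15; limma, adjusted p = 0.931). Pafah1b3 differed by -0.17 in IAb-/- and -0.12 in CIITA-/-, and by 0.44 and 0.27 in experiment 1. Pafah1b1, the regulatory subunit, had a log2 difference of 0.09 between CIITA-/- and IAb-/- and of -0.38 in experiment 1, with 4 of its 9 values above noise. Pafah2, another intracellular PAF acetylhydrolase, had log2 differences of -1.05 (SE 0.79; limma, adjusted p = 1) and -0.81 (SE 0.35; limma, adjusted p = 1) in IAb-/- against B6 on its 2 probe sets. Both lie within noise on every array, and the one measured in experiment 1 gave 1.07 there, so no direction can be read.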

How the data were processed

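The authors deposited 1 intensity per probe set and array, on a linear scale, in 2 value tables; no algorithm is named in the sources used here. The 2% trimmed mean is 2502.2 to 2502.6 on each of the 6 arrays of experiments 2 and 3 and 2500 on each of the 3 of experiment 1, so the deposited scale was kept. Per array design, 10855 and 10298 probe sets carry 1 symbol in the platform annotation, and those with several (396 and 363) were left unnamed. Values of the 6 arrays under their 30th percentile (123.5) were set to it and log2 was taken, which understates changes of dim probe sets. Of 12422 probe sets that are not controls, the 9312 exceeding it on 2 or more arrays were fitted with limma 3.58.1 in R 4.3.3, all 3 groups in 1 model, 3 residual degrees of freedom, with Benjamini-Hochberg adjustment over all of them. Experiment 1, floored at its own 93.2, stayed outside the fit. The number of arrays limits the precision. The script was tested on simulated data.

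The members, the gene lists and the noise limit were chosen with earlier results of these data known. The rule for genes named takes every member, any pathway gene that passed, up to 2 genes above noise with the largest difference per pathway list and comparison, and the 5 genes most correlated with Pla2g7. Pim1, Ptger4, Ptgfr, Pafah2, Pla2g4a, Pla2g1b, H2-M3 and the macrophage markers of experiment 1 were named after their values were seen. Experiment numbers come from the titles. As a check of pairing, the differences between experiments 3 and 2 correlated across probe sets at 0.05 between B6 and CIITA-/-, 0.08 between B6 and IAb-/- and 0.21 between CIITA-/- and IAb-/-.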

Additional observations from a re-analysis of the deposited data

How the results depend on the processing

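Of the members 0 passed in each comparison under all 14 alternatives to the fit, and of the pathway lists likewise (limma, adjusted p under 0.05). The log2 difference of Pla2g7 in IAb-/- against B6 ran from -1.17 to -1.13 over them and that in CIITA-/- against IAb-/- from 1.06 to 1.29; in CIITA-/- against B6 it kept its sign in 13 of 14 (-0.10 to 0.13). Differences of the other members are small, and several changed sign: Ptafr (its brightest probe set) in IAb-/- against B6 ran from -0.18 to 0.36 and Tbxas1 (likewise) from -0.26 to 0.25. Counts over all probe sets moved. In CIITA-/- against B6 the 9 calls became 3 with the floor at the noise limit, 14 with no filter, 4 with a filter at the noise limit and 0 to 1 when any 1 array was left out. In IAb-/- against B6 the 1 call became 0, 5 and 0 in that order, 3 with quantile normalization and 0 to 0 without any 1 array. In CIITA-/- against IAb-/- the 2 became 4, 7 and 4, and 0 to 1. With the experiment as a replicate block the counts were 0, 0 and 0, and with the block over all 9 arrays (7610 shared probe sets) 4 in the first comparison, 0 in the second and 3 in the third; the block changed no call of a member. Within noise no direction can be read: 3 of the 10 member probe sets did not pass the filter, and 2 of the 7 tested lay under the noise limit on all 6 arrays.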

Other observations

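The genes whose log2 values followed Pla2g7 most closely over the 6 arrays of experiments 2 and 3 were taken from 4460 probe sets with signal above noise, by Pearson correlation. They were Gm10229 (0.98), Hoxa4 (0.97), Csf3r (0.96), Pkib (0.95) and Gpank1 (0.95), and 22 probe sets reached at least 0.9. With 6 arrays and so many probe sets, such values are a description. Pla2g7 was itself low on both IAb-/- arrays of these experiments, so the ranking favours genes low on them, even by little. Gpank1 differed from B6 there by log2 -0.07 and -0.09. Hoxa4 gave 9921 and 9858 on B6 arrays, 11225 and 11190 on CIITA-/- arrays and 5256 and 4325 on IAb-/- arrays. In experiment 1 it gave 7084, 8042 and 4601, a log2 difference of IAb-/- from B6 of -0.62, the same direction. Csf3r, the receptor for the granulocyte growth factor G-CSF, gave 3879 and 3753 on B6 arrays, 4392 and 4982 on CIITA-/- arrays and 2291 and 2394 on IAb-/- arrays. In experiment 1 its IAb-/- array was the highest, at 5603 against 1822 in B6, a log2 difference of 1.62. Pkib, an inhibitor of protein kinase A, went from a mean difference under 0 to 0.29 in experiment 1, and Gm10229 to 0.25. Gpank1 is not on that design.

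Pla2g7 and H2-Ab1, which encodes the chain named by the IAb-/- label and kept signal on those arrays, both lie on chromosome 17 in GRCm38.p6, with 217 protein-coding genes between them in gene order. Probe sets of genes between them that were above noise on all 3 B6 arrays numbered 38. Of these, 4 were lower in IAb-/- in all 3 experiments (10.5%), against 15% of the 3183 probe sets above noise on all 3 B6 arrays anywhere, and 0 were over 2-fold lower in each. Among the 4 was H2-M3, a nonclassical class I gene, with log2 differences of -0.68, -1.31 and -1.13 in experiments 1, 2 and 3. The 38 leave out genes on the other side of H2-Ab1, and probe sets higher in IAb-/- were not counted. The positions of Pim1 and Glo1, named above, are not given here. On the whole chromosome 164 probe sets were above noise on all 3 B6 arrays, Pla2g7 included. Of those, 36 were lower in IAb-/- in all 3 experiments. Of the 16 nearest to Pla2g7 among these, taken from both sides of it, 4 were. Both counts are larger shares than the 15% given above. The 16 are not close neighbours: in gene order they lie at -128 to -66 and at 11 to 28 from Pla2g7. Mrps18a enters with several probe sets. These counts were made after the values of Pla2g7 were seen, and the part of its position in its level was not tested.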
